A study of Mus musculus with 16 samples.

Results

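The clustered protocadherin genes were taken as the protein-coding genes of mouse chromosome 18 whose symbols begin with Pcdha, Pcdhb or Pcdhg in the GENCODE vM21 annotation of GRCm38 (mm10), and 57 of 21755 protein-coding genes met this rule. The alpha cluster held 14 of them (chr18:36930184-37187661), the beta cluster 22 (chr18:37264938-37524479) and the gamma cluster 21 (chr18:37661793-37841873), and all 57 lay on the plus strand. The study mapped contacts in the whole cochlea, the hearing organ, of C57Bl/6 mice of age P0 in the labels and P0/1 in the study's methods, with no treatment and no second genotype. In Micro-C, micrococcal nuclease digests crosslinked chromatin and ends that were neighbours in the nucleus are ligated, so that read pairs record contacts. The 4 Micro-C replicates, of which the study's results call replicates 1 to 3 biological and replicate 4 technical while its supplement calls all 4 biological, were merged before loops were called in bins of 10 kb. By the study's supplement, replicate 4 had by far the most read pairs left after duplicates were removed, so the replicates did not weigh equally. The tissue is a mixture of sensory, supporting, neuronal and other cells, so a loop used in few cells and a weak loop in many cells cannot be told apart. Each loop is listed with its anchor bins, a false discovery rate (FDR) below 0.1 and the detection scale at which the loop caller found it. The list gives neither read counts nor values per replicate, so the depth behind a loop is unknown, no spread between replicates can be given and no test between conditions was possible.

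Clustered protocadherins are cell surface proteins of the cadherin superfamily that bind like molecules on neighbouring cells and are known for giving single neurons their own surface identity. In the alpha and gamma clusters each variable exon has its own promoter and is spliced to a shared set of constant exons, which encode the common intracellular end. Beta genes have 1 coding exon each and no constant exons. Pcdhac1, Pcdhac2, Pcdhgc3, Pcdhgc4 and Pcdhgc5, the C-type genes, stand nearest to the constant exons and are known to be used more broadly than the other variable exons. In neurons of other tissues, promoter choice is known to involve CTCF, a DNA-binding protein that stops cohesin, and contacts between promoters and distal enhancers downstream of the variable exons.

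Of the 6798 listed loops, 10 had an anchor inside the 911.7 kb from the start of the alpha cluster to the end of the gamma cluster, or within 500 kb of it. In 5 of them an anchor lay inside this span, intervals between the clusters included. These 5 fell into a pair at the alpha cluster and a set of 3 that ended downstream of the gamma cluster. Both anchors lay inside in 2 loops, the alpha pair, and 1 anchor lay inside in the other 3. No loop crossed all 3 clusters. Upstream, the anchor bins on either side of the 500 kb limit lay 400.2 kb and 520.2 kb from the clusters, and downstream 478.1 kb and 608.1 kb. Each bin past the limit was the far end of a loop whose other anchor lay within it, so these loops and bins were counted.

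**Figure D1:**
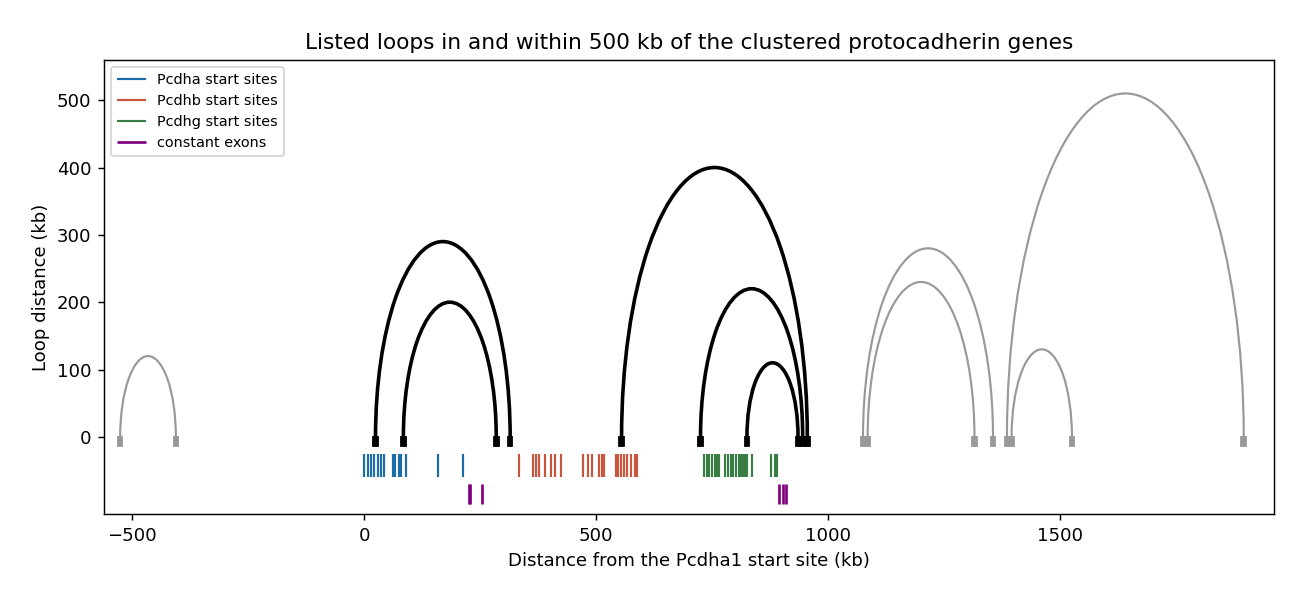
The loops in and within 500 kb of the clusters are drawn as arcs from anchor to anchor, with distance from the Pcdha1 start site (kb) on the horizontal axis and loop distance (kb) on the vertical axis. Black arcs are the 5 loops with an anchor inside the span from the alpha to the gamma cluster, grey arcs the 5 others. Squares are anchor bins, and the ticks below mark start sites and constant exons. The black arcs form an alpha pair and a set of 3 at the gamma cluster, with most beta start sites under no arc.

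The shorter alpha loop joined chr18:37010001-37020000 to chr18:37210001-37220000, a distance of 200 kb, with an FDR of 0.00329. Its left anchor held the start site of Pcdha11 (ENSMUSG00000102206.5, at 37010712), a variable exon near the downstream end of the regular alpha series. Its right anchor lay 22.34 kb after the last alpha constant exon and 44.94 kb before Pcdhb1, in the interval between the alpha and beta clusters. Of all listed loops, 33.4% had a lower FDR, and of the 1395 loops within 20% of its distance 36.8% did.

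The longer alpha loop joined chr18:36950001-36960000 to chr18:37240001-37250000, a distance of 290 kb, with an FDR of 0.0999. Its left anchor held the start site of Pcdha4 (ENSMUSG00000104252.5, at 36952648) together with its variable exon. Its right anchor lay 52.34 kb after the alpha cluster and 14.94 kb before Pcdhb1. This loop ranked 6793 of 6798 by FDR, next to the limit of the list, and 99.9% of the 1193 loops of like distance had a lower one. The shorter alpha loop lay wholly within it, with left anchors 60 kb apart and right anchors 30 kb apart.

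The 3 loops at the gamma cluster ended in 3 consecutive bins, chr18:37860001-37890000, all within Diaph1 (chr18:37843601-37935476, minus strand), a formin gene that acts on actin filaments and is known for its link to inherited hearing loss. These bins lay 18.13 kb, 28.13 kb and 38.13 kb after the end of the gamma cluster, and the Diaph1 start site was 45.476 kb from the nearest of them. The left anchors, in contrast to the right ones, were spread over 270 kb.

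The shortest of the 3 joined chr18:37750001-37760000 to chr18:37860001-37870000, a distance of 110 kb, with an FDR of 0.00449. Its left anchor held the start sites of Pcdhgb7 (at 37751600) and Pcdhga11 (at 37755731), variable exons of the B and A subfamilies near the end of the regular gamma series. Of the 999 loops of like distance, 38.5% had a lower FDR. It was the only one of the 5 inside loops found above the smallest detection scale, 2.6 against 2.11, and 71.7% of all listed loops were found at the smallest.

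The middle loop joined chr18:37650001-37660000 to chr18:37870001-37880000, a distance of 220 kb, with an FDR of 0.062. Its left anchor lay 1.793 kb before Pcdhga1 (at 37661793), the first gamma gene, and held no start site of a clustered protocadherin, but those of the lincRNA 3222401L13Rik and the pseudogene Gm8242. The outermost loop joined chr18:37480001-37490000 to chr18:37880001-37890000, a distance of 400 kb, with an FDR of 0.0391. Its left anchor held the start sites of Pcdhb17 (at 37484795) and Pcdhb18 (at 37489465) and the end of the Pcdhb16 exon, so this loop reached from the beta cluster across the gamma cluster into Diaph1. Of the loops of like distance, 83.9% of 1277 had a lower FDR than the middle loop and 73.9% of 1204 a lower FDR than the outermost.

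The order of the 5 inside loops by FDR was thus the alpha loop at Pcdha11, the gamma loop at Pcdhgb7 and Pcdhga11, the beta-to-Diaph1 loop, the loop before Pcdhga1 and the alpha loop at Pcdha4. An FDR under 0.05 was given to 3 of the 5 and to 78.8% of all loops, and an FDR under 0.01 to 2 of the 5 and to 48.0% of all loops. Their median FDR was 0.0391, with 0.0113 over the whole list, and their median distance 220 kb, with 280 kb over the list. Each of the 5 lay inside or around another one with 1 end within 30 kb, an arrangement shared by 69.9% of all listed loops.

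**Figure D2:**
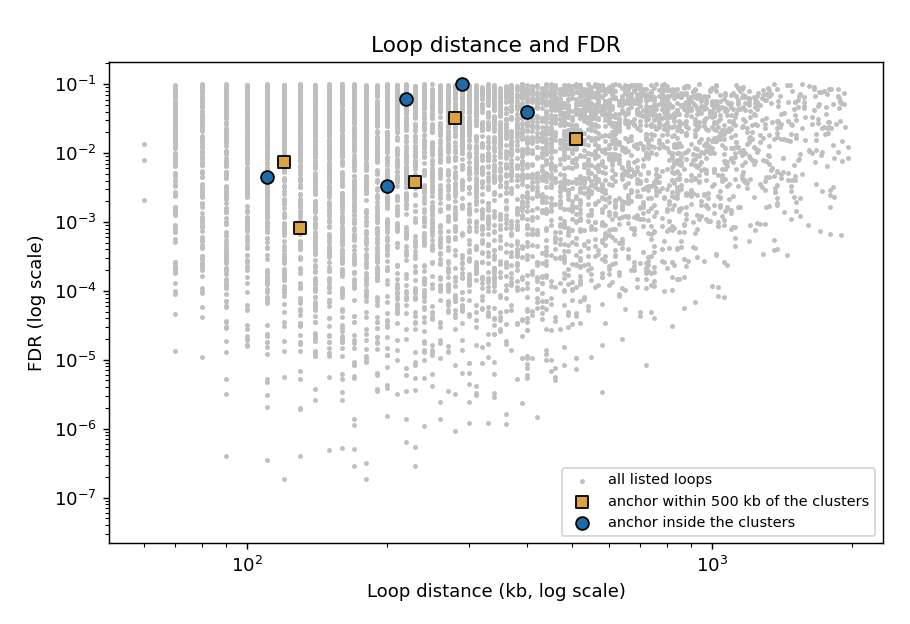
Each point is a listed loop, with loop distance (kb, log scale) on the horizontal axis and FDR (log scale) on the vertical axis. Circles mark the 5 loops with an anchor inside the span from the alpha to the gamma cluster, intervals between clusters included. Squares mark the 5 with an anchor only within 500 kb of that span. The circles run from 0.00329 to 0.0999 in FDR and from 110 kb to 400 kb in distance, all inside the cloud of the other loops.

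Start sites in an anchor bin were counted next. The start site was set at the 5′ end of each gene, and 6 of the 57 members had theirs in an anchor bin: Pcdha4, Pcdha11, Pcdhb17, Pcdhb18, Pcdhgb7 and Pcdhga11. This was 10.5% (95% Wilson interval 4.914% to 21.12%, counting error only), against 7.10% of all protein-coding genes and 8.19% of the 513 on chromosome 18, both within that interval. Each cluster gave 2, which was 14.3% of alpha genes (4.009% to 39.94%), 9.09% of beta genes (2.53% to 27.81%) and 9.52% of gamma genes (2.652% to 28.91%). The 3 intervals overlapped throughout. Neighbouring members share bins, so that these 6 start sites lay in 4 of the 41 bins that held a member start site.

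Variable exons gave nearly the same picture. Those of 7 of the 57 genes overlapped an anchor bin (12.3%), the 6 above and Pcdhb16, while the first coding exons of 7.04% of protein-coding genes did so. Variable exons are long, with a median of 2611 bases (range 2346 to 8695) against 255 bases for the first coding exon of protein-coding genes, and a longer exon can overlap a bin more easily. The beta exons, which hold the whole coding sequence, had a median of 3714 bases, the alpha exons 2490 and the gamma exons 2607.

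None of the 6 constant exons overlapped an anchor bin. The alpha constant exons (chr18:37156155-37156213, chr18:37159265-37159353 and chr18:37184946-37187661) lay 53.788 kb, 50.648 kb and 22.344 kb from the nearest anchor bin, in each case the right end of the shorter alpha loop. The gamma constant exons (chr18:37825021-37825079, chr18:37833265-37833353 and chr18:37839903-37841873) lay 34.922 kb, 26.648 kb and 18.128 kb from the nearest, the innermost of the Diaph1 bins. Both sets lay between the anchors of every listed loop of their cluster, and the downstream anchors stood beyond them.

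The C-type genes also lay between anchors and away from them. Pcdhac1 (at 37090013) was 70.013 kb and Pcdhac2 (at 37143503) 66.498 kb from the nearest anchor bin, the farthest and next farthest of the alpha genes. Pcdhgc3 (at 37806364) was 46.364 kb, Pcdhgc4 (at 37815079) 44.922 kb and Pcdhgc5 (at 37819513) 40.488 kb from one, and Pcdhgc3 was the farthest of the gamma genes. All 5 lay within every loop of their cluster, 2 loops for each alpha gene and 3 for each gamma gene.

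The distance from a start site to the nearest anchor bin had a median of 19.82 kb over the 57 members, against 56.65 kb over all protein-coding genes and 32.77 kb on chromosome 18. It was 9.213 kb in the alpha cluster (range 0 to 70.013 kb), 40.94 kb in the beta cluster (0 to 105.12 kb) and 20.23 kb in the gamma cluster (0 to 46.364 kb). These distances are not independent, since the members stand side by side around the same few bins. An anchor bin lay within 10 kb of 19 members (33.3%), 7 alpha, 5 beta and 7 gamma genes, and within 10 kb of 17.7% of all protein-coding genes. Pcdha12 missed the bin of the shorter alpha loop by 0.149 kb and Pcdha5 that of the longer by 0.44 kb, far less than the 10 kb width of a bin.

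**Figure D3:**
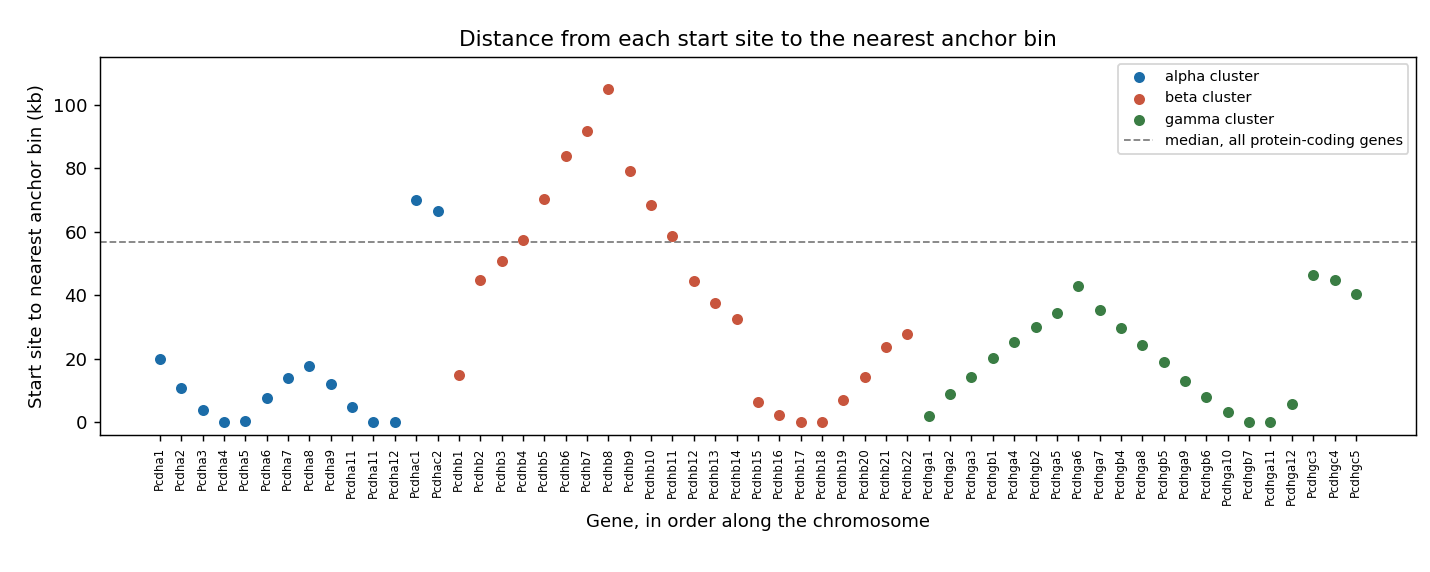
Each point is 1 of the 57 genes in chromosome order, with the distance from its start site to the nearest anchor bin (kb) on the vertical axis and the colour giving the cluster. The distance reaches 0 at 6 genes, rises to 105.12 kb at Pcdhb8 and is 40.488 kb or more at the 5 C-type genes, while the dashed line marks the median of all protein-coding genes, 56.65 kb.

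The stretches enclosed by loops covered the gamma cluster whole and the alpha and beta clusters in part. All 21 gamma start sites lay in or between the anchors of at least 1 listed loop, 15 of them in 2 loops and the 6 from Pcdhgb7 to Pcdhgc5 in 3. In the alpha cluster 11 of 14 did (78.6%, 52.4% to 92.4%), all but Pcdha1 (at 36930184), Pcdha2 and Pcdha3 at the upstream end. In the beta cluster 6 of 22 did (27.3%, 13.2% to 48.2%), from Pcdhb17 to Pcdhb22 (at 37517871), and each lay in 1 loop, the one that reached into Diaph1. Together this was 38 of 57 members (66.7%, 53.7% to 77.5%), against 39.1% of all protein-coding genes and 57.9% of those on chromosome 18. Genes of a cluster fall inside the same loop together, so these intervals understate the error.

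The start sites of the other 16 beta genes, Pcdhb1 (at 37264938) to Pcdhb16 (at 37477814), lay in a stretch of 230 kb without any anchor bin, chr18:37250001-37480000. The Pcdhb16 exon ran past its end into the next anchor bin. Pcdhb8 (at 37355121), in its middle, was 105.12 kb from the nearest anchor, the largest distance of any member. Stretches of this length are common in the list, since 21.0% of the 11808 intervals between successive anchors were at least as long. Near-identical sequence can remove read pairs that map to more than 1 place. Within the region of the clusters, 4.48% of the 50-base words in the anchor-free stretch occurred more than once, against 8.89% in the alpha cluster, 4.25% in the beta cluster and 1.97% in the gamma cluster. Copies elsewhere in the genome were not counted, so these shares do not measure how well reads map there. Among variable exons this share was highest in the alpha cluster, with a median of 14.8% and a maximum of 26.57% at Pcdha6, and had a median of 3.476% for beta and 0.601% for gamma exons. The 5 C-type exons held no such word. The part of repeated sequence in where loops were listed was not tested.

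By number of anchors, the clusters were within the usual range. The 911.7 kb held 7 anchor bins, each used by 1 loop: 2 in the alpha cluster, 2 between alpha and beta, 1 in the beta cluster, 1 between beta and gamma and 1 in the gamma cluster. Of 251529 windows of 910 kb along the chromosomes, 27.5% held at least 7 anchor bins and 80.4% at most 7, with a median of 4 (quartiles 1 and 7).

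**Figure D4:**
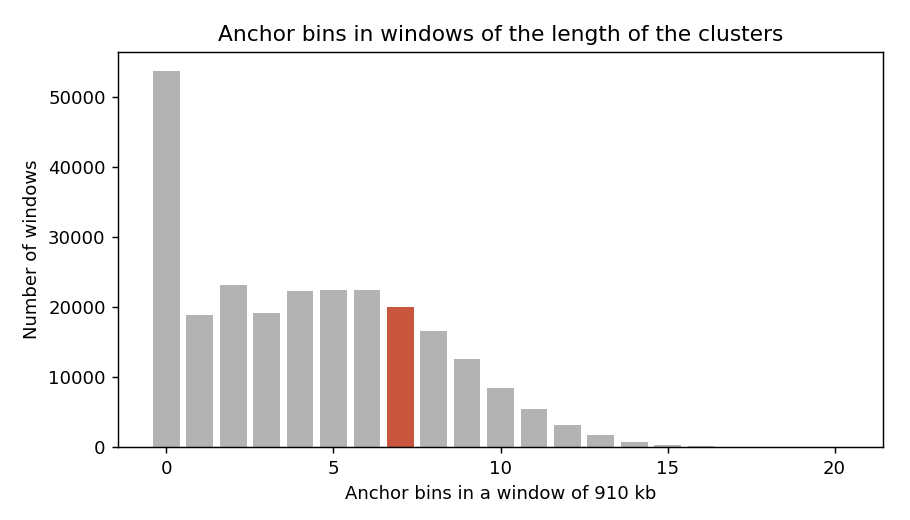
Bars give how many windows of 910 kb (vertical axis) held each number of anchor bins (horizontal axis) over chromosomes 1 to 19 and X. The coloured bar marks 7, the number in the span from the alpha to the gamma cluster, which was reached or passed in 27.5% of windows.

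CTCF was considered through sequence alone, by matches to a 14-base CTCF consensus with at most 1 mismatch on either strand. A match is a stretch of letters and not a measured binding site, and no sequence of this chromosome is printed here. From 250 bases before to 50 bases after the start site, 0 of 57 members had a match, against 2.75% of all protein-coding genes. This window depends on the annotated start site, and the consensus can miss sites. The count of 0 thus does not show that these promoters lack CTCF sites. In the first 2500 bases of the gene 12 of 57 had one, and 9 of these 12 were alpha genes. The share was 64.3% of alpha genes (38.8% to 83.7%), 4.55% of beta genes (0.807% to 21.8%) and 9.52% of gamma genes (2.65% to 28.9%), against 8.29% of all protein-coding genes and 10.3% of the 1086 with a first coding exon of at least 2000 bases.

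The 9 alpha matches stood at nearly one place in the exon. All 9 were on the strand of the gene, 456 to 581 bases after the start site with a median of 560, and over all protein-coding genes 4.19% had a match on their own strand in the first 2500 bases. The match was exact in 6 genes, Pcdha1, Pcdha4, Pcdha6, Pcdha7, Pcdha8 and Pcdha12, and had 1 mismatch in Pcdha5, Pcdha9 and the gene at 37005203. No match was found in Pcdha2, Pcdha3, the Pcdha11 gene in the anchor, Pcdhac1 or Pcdhac2. The alpha exons are copies of one another, so the 9 are not independent of each other. The 3 matches of the other clusters, in Pcdhb21 (2400 bases), Pcdhga8 (2256 bases) and Pcdhgb7 (836 bases), were all on the opposite strand.

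**Figure D5:**
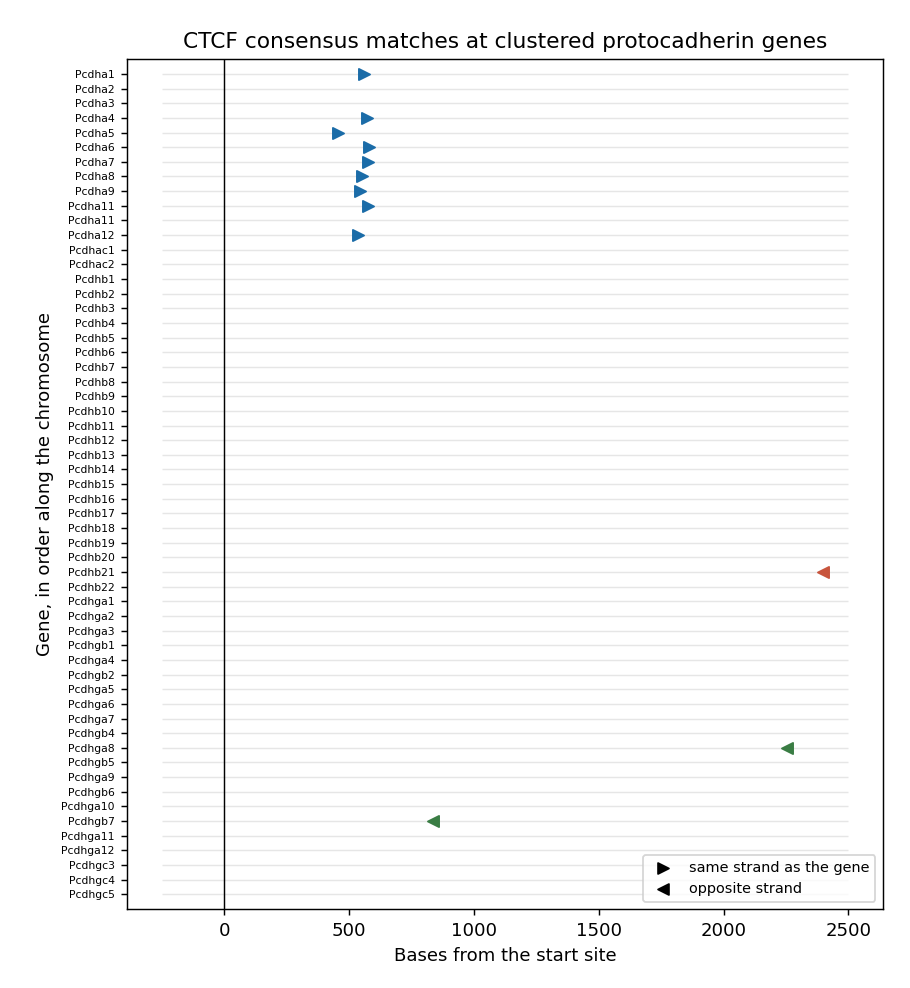
Each line is 1 of the 57 genes in chromosome order from 250 bases before to 2500 bases after its start site (horizontal axis, bases), and triangles mark matches to the CTCF consensus, pointing right on the strand of the gene and left on the opposite strand. The 9 alpha matches line up 456 to 581 bases after the start site, and 3 others, all on the opposite strand, are scattered.

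Of the 10 anchor bins of the 5 inside loops, 6 held a match, against 48.4% of all anchor bins. The left bin at Pcdha4 held 1 forward match, the one inside the Pcdha4 exon 574 bases after its start site. The left bin at Pcdha11 and the left bin at Pcdhb17 and Pcdhb18 held none, while the left bin at Pcdhgb7 held 2 reverse matches and the one before Pcdhga1 1. On the right side, the bin between alpha and beta at the end of the shorter loop held 2 reverse matches, the middle Diaph1 bin 1 and the outermost Diaph1 bin 2, both exact, and the remaining 2 bins held none. Forward matches were thus in 1 of 5 left bins and reverse matches in 3 of 5 right bins, while over the list 39.8% of left bins held a forward and 40.5% of right bins a reverse match. In the other orientation, reverse matches were in 2 of 5 left bins, against 14.6% over the list. Forward matches were in 0 of 5 right bins, against 14% over the list. Outside the clusters themselves, there were 1 forward and 2 reverse matches between alpha and beta, 3 forward and 4 reverse between beta and gamma, and 0 forward and 4 reverse in the 50 kb after gamma.

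The 5 loops with an anchor near but not inside the span of the clusters lay apart from it. One lay upstream, over 120 kb with an FDR of 0.00732, and ended at the start site of Slc4a9, a member of the bicarbonate transporter family. The other 4 lay downstream of Diaph1, with distances of 130 kb to 510 kb and FDRs from 0.000807 to 0.0326. One of them, over 280 kb with an FDR of 0.0326, joined a bin 1.032 kb from the Arap3 start site to one with the start sites of Pcdh12, a protocadherin outside the clusters, and Rnf14, an E3 ubiquitin ligase gene. A loop of 230 kb with an FDR of 0.00376 ended 0.255 kb before Dele1. The last pair had their left anchors in Rnf14 and Gnpda1 and reached Arhgap26 over 510 kb (FDR 0.016) and Ndfip1 over 130 kb (FDR 0.000807).

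Genes around the clusters gave a share like that of the members. Of the 31 other protein-coding genes with a start site within 500 kb, 3 had it in an anchor bin (9.68%, 3.35% to 24.9%), Slc4a9, Pcdh12 and Rnf14, and their median distance to an anchor was 45.5 kb. Between Slc4a9 and Pcdha4 no anchor was listed over 420 kb, a stretch that held 16 of these genes and the first 3 alpha genes. Of all intervals between successive anchors, 9.23% were at least as long. Including these flanks, 13 of the 20 anchor bins of the 10 loops held a CTCF match (65.0%, 43.3% to 81.9%), against 48.4% of all anchor bins and 21.4% of all bins.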

How the data were processed

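Micro-C reads of 4 replicates were, per the study's methods, aligned by the authors to mm10 with BWA-MEM, filtered and freed of duplicates with pairtools, merged, and given to Mustache in bins of 10 kb. Tool versions are not given in the sources used here. The deposited list holds an FDR for each loop, a q-value from the authors' loop caller, and a detection scale, a score that the authors' loop caller assigned. Read depth per loop is not known from it, which limits how firmly a missing loop can be read. ATAC-seq and CUT&RUN samples were not analysed here.

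From the list, loop distances (bin start to bin start), anchor bins and their overlap with GENCODE vM21 genes were derived in Python (3.11.15) using pandas 2.3.3, numpy 2.4.6 and, for intervals, scipy 1.17.1 (figures: matplotlib 3.10.9). The genome was GRCm38.p6. Variable exons are first coding exons. A constant exon is one shared by at least 5 members. Pcdhgb8, a polymorphic pseudogene, and 3 read-through genes that span the clusters were left out. GENCODE vM21 gives the symbol Pcdha11 to 2 genes, and the RefSeq table of GRCm38.p6 names Pcdha10 at the first, at 37005203. The CTCF consensus was written from general knowledge. Intervals of shares are 95% Wilson intervals. The interval of the median loop distance was taken from the ranked distances, with loops treated as independent. The code was tested on simulated loops.

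Named are members on anchors, the first and last gene of each cluster, those nearest to and farthest from an anchor, the C-type genes, genes at the other ends, and listed genes with a start site in an anchor. Members, lists and the consensus were chosen with earlier results of these data known. Alternatives were stricter FDRs, 1 detection scale, merged calls, other limits of nearness, wider anchors, other start sites and other mismatch limits.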

Additional observations from a re-analysis of the deposited data

How the results depend on the processing

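Of 36 recomputed values, 23 stayed within their limit and 13 did not. The limit was 1.5 times the reported count or, for the median loop distance of 225 kb, its interval of 120 to 400 kb. That interval left out only the shortest and the longest of the 10 loop distances, so a median could hardly leave it. At an FDR under 0.01 the median fell to 130 kb and was still counted as staying. The 5 loops with an anchor inside the span of the clusters became 3 at an FDR under 0.05 and 2 under 0.01. They became 3 when calls within 100 kb of each other were merged. The 2 loops with both anchors inside that span became 1 under each of these settings. The loops kept at an FDR under 0.01 were those at Pcdha11 and at Pcdhgb7 and Pcdhga11. At an FDR under 0.05, and with merged calls, the beta-to-Diaph1 loop was kept as well. The 10 loops in or near the clusters became 5 at an FDR under 0.01 and 6 at the smallest detection scale alone. The 6 start sites in an anchor bin became 3 at an FDR under 0.01 and 19 with anchors widened by 10 kb on each side. The 7 variable exons became 3 and 21. Widening raised the share of start sites of all protein-coding genes as well, from 7.10% to 17.7%. No such share was computed at an FDR under 0.01 or for exons on widened anchors, so these counts show no change particular to the members. Bins with a CTCF match fell from 13 to 2 when no mismatch was allowed. The lower counts at stricter FDRs, at 1 detection scale and with merged calls follow from fewer loops being kept, and that at 0 mismatches from the stricter match, with the loops unchanged.

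No paired analysis was possible because the list was called on the merged replicates and holds no value per replicate. For the same reason no replicate was left out. The unknown depth limits all counts: a loop missing from the list was not shown to be absent. Bins of 10 kb cannot tell neighbouring members such as Pcdhgb7 and Pcdhga11 apart.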

Other observations

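Genes whose products act on or with clustered protocadherins were looked up in the same list, from lists chosen with earlier results of these data known. Of 17 genes of chromatin architecture and silencing, 3 had a start site in an anchor bin (17.6%, 95% Wilson interval 6.19% to 41.0%), against 7.10% of all protein-coding genes, a share within that interval. They were the cohesin-associated genes Pds5a (loop of 290 kb, FDR 0.00665) and Pds5b (700 kb, FDR 0.0485) and the histone methyltransferase gene Setdb1 (90 kb, FDR 0.0738). The start site of Ctcf lay 83.4 kb and that of Rad21, a cohesin subunit, 71.7 kb from the nearest anchor. Of 17 genes of cytoplasmic partners and signalling, 2 had one (11.8%, 3.29% to 34.3%), the kinase gene Ptk2b, whose loop of 100 kb (FDR 0.00251) had its other end within the same gene, and Abi2 of the WAVE complex (460 kb, FDR 0.0343).

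Other tandem gene arrays gave unlike counts. The Ugt1a genes, whose first exons also share constant exons, held no anchor bin over 164.6 kb, and their 9 start sites had a median distance of 163 kb to an anchor. The Hoxa cluster held 5 anchor bins and 6 loops, with 5 of 11 start sites in anchors. Hoxb held 4 anchor bins and 5 loops with 3 of 10 start sites, Hoxc 2 and 2 with 3 of 9, and Hoxd 3 and 5 with 3 of 9. Over all protein-coding genes 7.10% of start sites lay in an anchor bin. Neighbouring start sites can share a bin, as in Hoxc, so these counts are not independent. None of these arrays, which are 96.83 to 173.9 kb long, had a loop with both anchors inside. The protocadherin span, 911.7 kb with the intervals between clusters included, had 2. Both were alpha loops with right anchors between the alpha and beta clusters, so no single cluster had a loop with both anchors inside. The arrays differ in length, and their counts were not tested against each other.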
